A study of Mus musculus with 28 samples.

Results

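Of 255567 regions of open chromatin merged from 27 mouse ATAC-seq peak lists, 1599 were called in the starting fibroblasts and again in the converted GFP-labelled cells of day 10, and in no satellite cell library. They are called kept fibroblast regions here. Peaks sharing at least 1 bp were merged, and a region counts as called in a library that lists a peak there. A kept region was called in both day 0 libraries, in both day 10 GFP libraries and in none of the 4 libraries of quiescent or activated satellite cells. The regions were chosen by these calls, which are therefore described without a test. The other 19 libraries took no part in the choice.

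Per the labels' protocols the fibroblasts were isolated from mouse embryos of day 13.5 and carried a Pax7-nGFP reporter, Rosa-rtTA and Col1a1-tetO-MyoD, so doxycycline switches on MyoD. The fibroblasts named MEF14 were sampled at day 0. They were also sampled under doxycycline plus forskolin, RepSox and CHIR99021, an inhibitor of GSK3β, on days 2, 4, 6 and 8 (Dox+FRG). Dox+FRG cells carry a GFP label on days 8 and 10. Doxycycline alone was labelled on days 4 and 8 (Dox), and FRG alone on day 8. The letters FRG are taken to stand for the 3 compounds, and the treated media also held basic FGF. Of the MEF10 fibroblasts, day 6 libraries named MyoD+FRG or MN+FRG were used, with neither MN nor the source of MyoD defined by the labels. Satellite cells came from adult Pax7-nGFP mice of 10 to 12 weeks and were labelled quiescent or activated. Each group had 2 libraries, of which MEF10 MyoD+FRG replicate 2 was left out. Separate cultures or animals are not stated for the 2 libraries of a group, and p-values then reflect only how libraries vary, which may be technical. Groups without a GFP label are called unsorted, although the labels do not state the sort.

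Open chromatin marks promoters and enhancers that transcription factors can reach, and each cell type has its own set. When a cell is turned into another type, the enhancers of the old type usually close while those of the new type open. MyoD is a muscle transcription factor that can bind closed chromatin and turn fibroblasts into muscle cells. Pax7 is the factor that marks the satellite cells, which are muscle stem cells, so a Pax7 reporter marks progenitor-like cells. Forskolin raises cyclic AMP, RepSox blocks the TGF-β receptor, and CHIR99021 activates Wnt signalling by inhibiting GSK3. Regions called in fibroblasts and in converted GFP cells, but not in satellite cells, are places where the converted cells share listed peaks with their source. Whether such a region stayed open throughout cannot be told from these calls.

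The lists used held 37301 to 134997 peaks, with the longest lists in the FRG and Dox cells (89871 to 134997) and in MN+FRG cells (93086 and 93730). Most peaks of a list shared the same width, between 61 and 205 bp. This common width was 61 and 63 bp in FRG, 78 to 88 bp in Dox and 111 to 123 bp in MN+FRG lists. In the other lists it was 153 to 205 bp. The lists give positions only, so the strength of a peak and the sequencing depth are unknown. A missing peak therefore means that none was listed, not that the chromatin was closed. In these bulk libraries a region open in fewer cells and a region less open in each cell cannot be told apart. Positions are those of mm9, counted from 1. No mm9 gene annotation or sequence was used here, so regions are given by position and not by gene.

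Few fibroblast regions outside the satellite cell set were kept. Of 17122 regions called in both day 0 libraries and in no satellite cell library (fibroblast-only regions), 1599 (9.34%) were called in both day 10 GFP libraries. Those calls define the kept regions, so the share is a description without a test. A further 971 were called in 1 of the 2 day 10 GFP libraries, and 14552 in neither. These 14552 are called released regions. Among the 40929 day 0 regions that at least 1 satellite cell library called, 71.3% were called in both day 10 GFP libraries, and over all 255567 regions the share was 21.5%.

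The edge of the rule held more regions than its inside. There were 2227 regions that met the rule but for a peak in 1 satellite cell library, and 1469 of them were called only in quiescent replicate 1. Without that library the rule gives 3068 regions. The other near misses were 560 regions called only in activated replicate 2, 173 only in activated replicate 1 and 25 only in quiescent replicate 2. The quiescent lists held 57859 and 37910 peaks. A further 930 regions missed the rule by 1 day 0 library. The regions with 1 satellite cell library were called in a median of 14 of the 19 other libraries, as the kept regions were. Those with 1 day 10 GFP library were called in a median of 10, and those with 1 day 0 library in 11.

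By the rule a kept region holds no satellite cell peak and has peaks of both day 0 and day 10 GFP cells. Distances to satellite cell regions and overlaps of these peaks are therefore a description. The median distance to the nearest region called in any satellite cell library was 7950 bp, and 38 of 1599 (2.38%) lay within 1 kb of one. For released regions these values were 9003 bp and 3.02%. In 1277 kept regions (79.9%) at least 1 base was covered by a peak of all 4 day 0 and day 10 GFP libraries. In 1221 (76.4%) the middles of the closest day 0 and day 10 GFP peaks lay within 50 bp.

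Kept and released regions were split by their calls in Dox+FRG day 10 GFP cells, so a higher kept share in cells of the same course is favoured by the choice, and the comparison is a description with no test. Over the 19 libraries outside the rule, a kept region had a peak in 29.5% (lowest), 70.4% (median) and 92.0% (highest) of cases, and a released region in 0.433%, 23.9% and 72.6%. The kept share was the higher in 19 of 19 libraries, by 19.4 to 65.4 percentage points. The lowest kept share was that of MEF10 MyoD+FRG replicate 1, the shortest list, and the highest were those of FRG replicates 1 and 2. Over the 10 groups the mean difference was 39.6 percentage points ± 16.1 (SD, n = 10 groups), from 19.9 in FRG cells to 58.5 in Dox+FRG day 6 cells. With extended peaks alone (peaks above the usual width in the list they come from) it was 6.99 points, and with lists drawn to equal length 23.2. In the groups outside the Dox+FRG course it was 48.1 points in Dox day 4, 32.6 in Dox day 8, 19.9 in FRG, 20.2 in MEF10 MyoD+FRG and 21.5 in MN+FRG cells. Most groups come from the same fibroblast line and are not independent of each other. The lists hold no peak height, so kept and released regions could not be compared at equal strength.

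**Figure D1:**
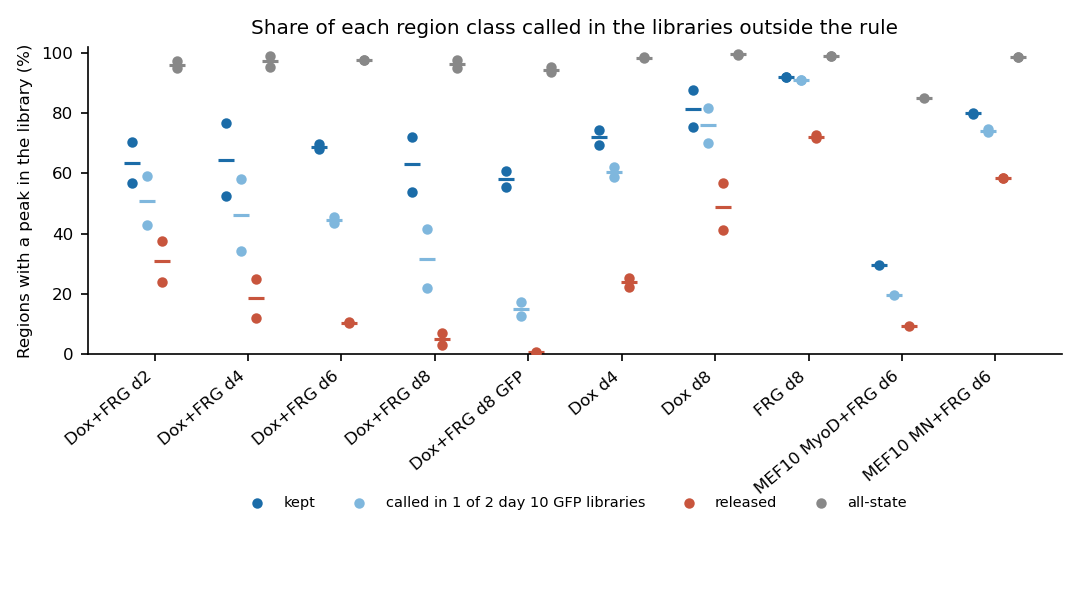
Percent of regions with a peak in each library outside the rule (y axis), by group (x axis); points are libraries and short lines group means, for the 1599 kept regions, the 971 regions called in 1 of 2 day 10 GFP libraries, the 14552 released regions and the 18120 all-state regions. Kept regions lie above released regions in every group and below all-state regions, with the smallest gap to released regions in FRG and MEF10 cells.

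Kept regions were called less widely than all-state regions, defined next, and more widely than released regions, an order that the choice of classes favours. All-state regions had to be called in all 8 libraries of the rule and kept regions in those of day 0 and day 10 GFP. Released regions had to be called in those of day 0 alone. The order is therefore a description. The 18120 regions called in both day 0, both day 10 GFP and all 4 satellite cell libraries (all-state regions) were called in a median of 19 of the 19 other libraries, against 14 for kept and 5 for released regions. In 147 kept regions (9.19%) all 19 libraries had a peak, beside 6.83% of all merged and 0.859% of fibroblast-only regions. At least 15 libraries called 720 kept regions (45.0%), beside 13.7% of all merged and 7.0% of fibroblast-only regions. The share was 96.3% among all-state and 2.23% among released regions. At most 4 libraries called 58 kept regions (3.63%), beside 60.4% of all merged and 39.5% of fibroblast-only regions. Kept regions were intermediate in extent too. The median merged width was 499 bp (quartiles 295 and 932 bp), against 234 bp for released and 894 bp for all-state regions, and width grows with the number of libraries merged.

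**Figure D2:**
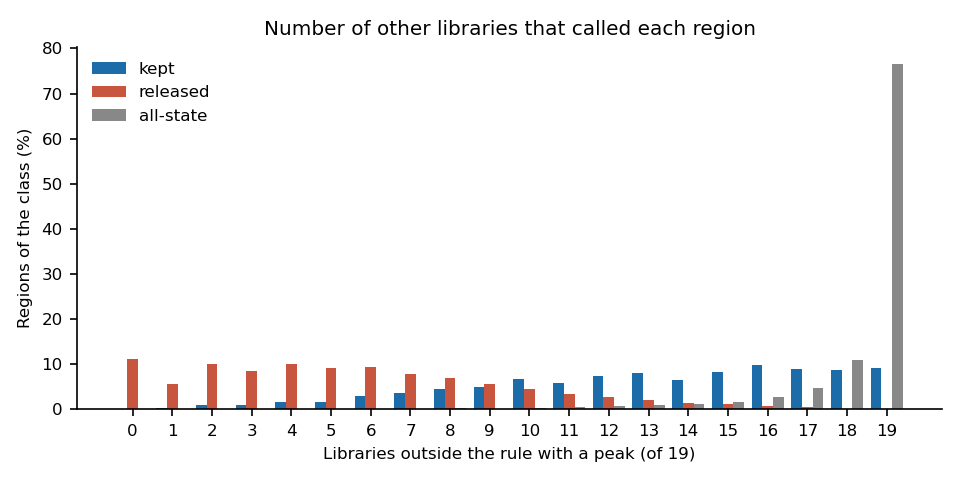
Percent of the regions of a class (y axis) by the number of the 19 libraries outside the rule that called them (x axis), for kept, released and all-state regions. Kept regions spread over the whole range with a median of 14, released regions sit low with a median of 5, and most all-state regions are at 19.

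In the libraries of the rule, extended peaks were found at few kept regions, though at a higher share than over all merged regions. Both day 0 libraries had an extended peak in 88 of them (5.50%), beside 1.94% of all merged and 3.0% of fibroblast-only regions. The share was 2.64% among released, 4.33% among regions called in 1 day 10 GFP library, and 16.2% among all-state regions. Both day 10 GFP libraries had an extended peak in 63 kept regions (3.94%), beside 1.31% of all merged, 0.368% of fibroblast-only and 10.2% of all-state regions. These values come from the libraries of the rule and are a description. In the 19 other libraries, extended peaks lay at 1.0% to 42.3% of kept regions (median 6.44%). The highest values were those of FRG replicates 1 and 2, at 42.3% and 41.6%. These lists had the smallest common widths, 61 and 63 bp, and extended peaks at 74.2% and 74.7% of all-state regions. Released regions were at 0.0% to 22.5% and all-state regions at 8.97% to 74.7%.

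Through the unsorted Dox+FRG course group means of the kept share lay between 63.0% and 68.9%, while those of the released share went from 30.7% to 4.90%. In replicates 1 and 2, day 2 libraries called 70.4% and 56.8% of kept regions. Day 4 libraries called 76.7% and 52.5%, day 6 libraries 68.0% and 69.7%, and those of day 8 called 72.2% and 53.8%. The 2 libraries of day 2, day 4 or day 8 differed by more than the group means did between days. Means were 63.6% ± 9.64, 64.6% ± 17.1, 68.9% ± 1.24 and 63.0% ± 13.0 (SD, n = 2 each). Over the 8 libraries the relation of the share with day did not pass (r = 0.03, exact permutation p = 0.948, adjusted p = 1, rho = 0, p = 1). Leaving out day 2 turned r to -0.07, and leaving out day 8 gave 0.26. Released regions went from 30.7% ± 9.66 at day 2 to 18.5% ± 9.12, 10.4% ± 0.296 and 4.90% ± 2.72 at days 4, 6 and 8. The rule set the released share to 0 in day 10 GFP cells, so the approach to 0 is built into the choice. Lower kept shares came with shorter lists. Replicate 2 of days 2, 4 and 8 had 46017, 51536 and 50608 peaks, against 59721, 70877 and 67026 in replicate 1. The part of list length in these differences was not tested.

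**Figure D3:**
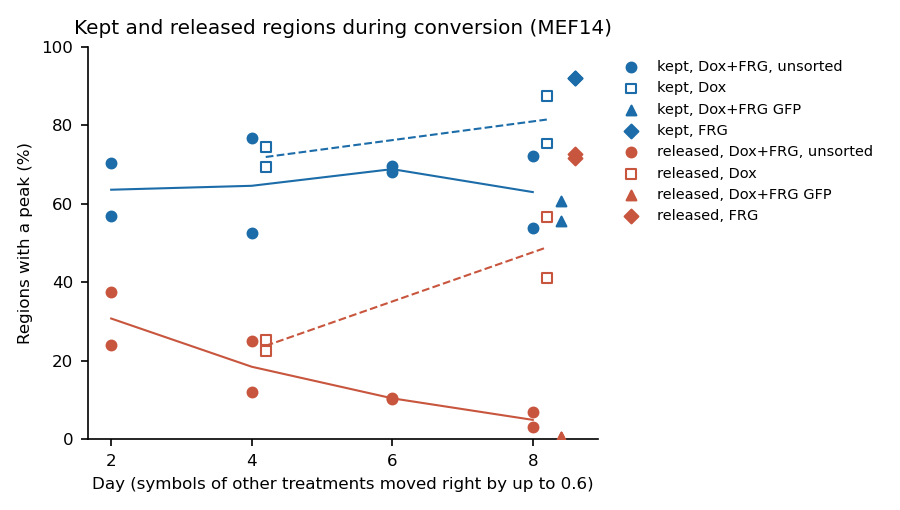
Percent of kept (blue) and released (red) regions with a peak (y axis) by day (x axis) in MEF14 cells; each symbol is a library, lines join group means of unsorted Dox+FRG (solid) and Dox cells (dashed). Kept regions stay between 52.5% and 76.7% in unsorted Dox+FRG libraries, while released regions reach 6.82% and 2.98% at day 8.

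Single kept regions followed several courses. All 8 unsorted Dox+FRG libraries called 388 of them (24.3%), beside 10.1% of all merged and 3.39% of fibroblast-only regions. None of the 8 called 68 (4.25%), beside 59.1% of all merged and 44.8% of fibroblast-only regions. At day 2, 390 kept regions (24.4%) were called in neither library, beside 75.3% of all merged and 54.8% of fibroblast-only regions. Of these 390, 102 were called in both day 8 GFP libraries (6.38% of kept regions, beside 3.33% of all merged and 0.718% of fibroblast-only regions). The reverse, both libraries at day 2 and neither at day 8 GFP, held for 174 (10.9%, beside 5.19% and 19.9%). Calls in neither library at day 2 and both at days 4, 6 and 8 were found in 33 (2.06%, beside 2.33% of all merged and 0.561% of fibroblast-only regions). Calls in both up to day 6 and neither at day 8 were found in 23 (1.44%, beside 0.39% and 1.16%). The regions called in all 8 were wider (median 643 bp) than the 68 called in none (284 bp).

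In day 8 GFP cells the shares of kept regions lay within the range of the unsorted cells of that day. The GFP libraries called 60.7% and 55.5% of them and the unsorted libraries 72.2% and 53.8%, so the groups overlapped. The mean difference was -4.91 percentage points (exact permutation p = 1, and with 2 against 2 libraries p cannot go below 0.33). Without unsorted day 8 replicate 1 it was 4.32 points. Both day 8 GFP libraries called 753 kept regions (47.1%), beside 15.1% of all merged and 4.84% of fibroblast-only regions. Both unsorted day 8 libraries called 779 (48.7%), beside 18.2% and 7.46%. Regions called in both GFP and neither unsorted library numbered 65 (4.07%, beside 1.08% of all merged and 0.514% of fibroblast-only regions), and the reverse held for 120 (7.50%, beside 4.06% and 3.12%). The rule asks for calls in GFP cells of day 10, which favours GFP cells in each of these values. The GFP lists were the shorter, with 47002 and 43467 peaks against 67026 and 50608. Regions called in 1 of 2 day 10 GFP libraries were at 14.9% ± 3.28 in day 8 GFP and 31.6% ± 13.8 in unsorted day 8 cells (SD, n = 2 each).

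Of the 363 kept regions that neither unsorted day 8 library called, 65 (17.9%) were called in both day 8 GFP libraries, beside 0.613% of the fibroblast-only regions with the same unsorted calls. Of the 68 regions called in no unsorted Dox+FRG library, 11 (16.2%) were called in both day 8 GFP libraries, beside 0.195% of such fibroblast-only regions. Both FRG libraries called 52 of the 68 (76.5%, beside 49.8%) and both Dox day 8 libraries 21 (30.9%, beside 23.2%). Of the 388 called in all 8, both day 8 GFP libraries called 302 (77.8%), beside 52.7% of the fibroblast-only regions called in all 8. Both FRG libraries called 379 of the 388 (97.7%, beside 97.4%) and both Dox day 8 libraries 332 (85.6%, beside 85.5%). The fibroblast-only regions include the kept ones, and the shares in FRG and Dox cells of the 388 are near that background.

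Whether the small molecules alter the keeping of these regions was asked by setting Dox+FRG against Dox cells at days 4 and 8. Dox cells called 69.4% and 74.5% of kept regions at day 4 and 75.4% and 87.6% at day 8, and Dox+FRG cells 76.7% and 52.5%, then 72.2% and 53.8%. Dox+FRG cells were at 63.8% ± 12.5 and Dox cells at 76.7% ± 7.74 (SD, n = 4 each), a difference of -12.9 percentage points. By an exact permutation test of 70 splits it did not pass (p = 0.200, adjusted p = 0.400). Of all merged regions, Dox+FRG libraries called a mean of 23.6% at day 4 and 22.7% at day 8, and Dox libraries 36.1% and 46.1%. A lower share in Dox+FRG than in Dox libraries was thus not particular to kept regions. The rule asks for calls in Dox+FRG cells of day 10, which favours the Dox+FRG arm. With peaks drawn to equal list lengths the direction turned, to 11.7 points more in Dox+FRG cells (exact permutation p = 0.0286), while with extended peaks alone it was -9.66 (p = 0.0286). Such a draw removes a larger part of a longer list, and Dox lists were the longer ones. The width above which a peak counts as extended was 78 to 88 bp in Dox and 172 to 180 bp in these Dox+FRG lists. Extended peaks lay at 55.6% to 59.0% of all-state regions in Dox and at 11.2% to 20.3% in Dox+FRG libraries. The setting of extended peaks therefore does not measure the 2 arms alike. With all peaks, the differences in kept share within days were -7.29 points at day 4 (exact permutation p = 1) and -18.5 at day 8 (p = 0.33, the smallest possible).

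The released share of the same libraries is a description, since released regions were chosen by their absence in Dox+FRG day 10 GFP cells and this lowers their share late in the Dox+FRG arm. It was 18.5% ± 9.12 in Dox+FRG and 23.8% ± 1.97 in Dox cells at day 4. At day 8 it was 4.90% ± 2.72 and 48.9% ± 11.1 (SD, n = 2 each), with 6.82% and 2.98% in the Dox+FRG and 41.1% and 56.7% in the Dox libraries. Both Dox and neither Dox+FRG day 8 library called 201 kept regions (12.6%, beside 16% of all merged and 30.2% of fibroblast-only regions). The reverse held for 46 (2.88%, beside 0.785% and 0.496%).

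Most kept regions were called in cells labelled FRG, with no doxycycline in the label. FRG day 8 replicates 1 and 2 called 92.0% each, and Dox day 8 cells 75.4% and 87.6%. The difference of the means was 10.5 percentage points (exact permutation p = 0.33, the smallest possible). FRG cells also called 72.6% and 71.6% of the released regions, from the longest lists of the series, so these lists held most fibroblast-only regions, kept or not. Of all merged regions, FRG libraries called 52.1% and 51.5% and Dox day 8 libraries 41.8% and 50.4%. With equal list lengths the FRG and Dox means differed by 0 points, and with extended peaks alone FRG cells were 25.3 points above Dox cells. The equal draw left 28.1% and 28.5% of all-state regions called in FRG and 35.2% and 29.2% in Dox day 8 libraries. Extended peaks lay at 74.2% and 74.7% of all-state regions in FRG and at 56.2% and 55.6% in Dox day 8 libraries. The part of list length and of common width in these differences was not tested.

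By their calls in FRG and Dox cells at day 8, the kept regions were put into 4 classes. Dox day 4 calls played no part in them. Both libraries of both treatments called 1072 (67.0%, beside 22.9% of all merged and 34.9% of fibroblast-only regions). Both FRG and neither Dox library called 139 (8.69%, beside 17.6% and 21.6%). Both Dox and neither FRG library called 67 (4.19%, beside 13.9% and 6.0%). No library of either called 20 (1.25%, beside 18.5% and 11.8%). The other 301 had split libraries.

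The rule kept regions called in day 10 GFP cells, so regions left after asking for absence in Dox or FRG cells are favoured in day 8 GFP cells, and the GFP and unsorted shares by class are a description with no test. In the 139 regions of FRG but not Dox cells, day 8 GFP libraries called 60.4% and 56.8% of them and unsorted day 8 libraries 44.6% and 36.0%, with no overlap between the groups. The difference of the means was 18.3 percentage points. At day 2 they were called at 67.6% and 48.2%, at day 4 at 47.5% and 24.5% and at day 6 at 40.3% and 44.6%, and Dox day 4 cells called 14.4% and 22.3%. Without the rule, over all 45101 merged regions of this class, the means were 2.98% in day 8 GFP and 2.69% in unsorted day 8 cells. At days 2, 4 and 6 they were 9.1%, 3.61% and 3.05%, and 2.43% in Dox day 4 cells. The class depends on Dox day 8 replicate 2, the longer Dox list, without which it held 345 kept regions and the difference was 11 points. With extended peaks alone the difference was 1.80 points.

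In the class of both treatments the order of the means was the other way. The 1072 regions of both treatments were called at 58.3% ± 3.89 in day 8 GFP and 68.5% ± 14.5 in unsorted day 8 cells, a difference of -10.2 points that turned to 0.0466 without unsorted day 8 replicate 1. Over all 58434 merged regions of this class the means were 50.4% in day 8 GFP and 60.3% in unsorted day 8 cells. The gap was thus similar without the rule and not particular to kept regions. The 67 regions of Dox but not FRG cells were called at 23.9% ± 12.7 at day 2, 60.4% ± 17.9 at day 4, 61.9% ± 20.1 at day 8 and 46.3% ± 10.6 in day 8 GFP cells (SD, n = 2 each), and changes between days were not tested. Over all 35614 merged regions of this class the means were 8.52%, 32.9%, 36.8% and 17.8%. They rose and fell in the same order, at lower values. The 20 regions of neither treatment were called at 75% and 70.0% in day 8 GFP and at 30.0% and 50.0% in unsorted day 8 cells. Without the rule, over all 47284 merged regions of that class, the means were 7.45% and 6.60%. No kept region was called in all 8 unsorted Dox+FRG libraries and in no Dox or FRG library, beside 0.00274% of all merged regions.

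**Figure D4:**
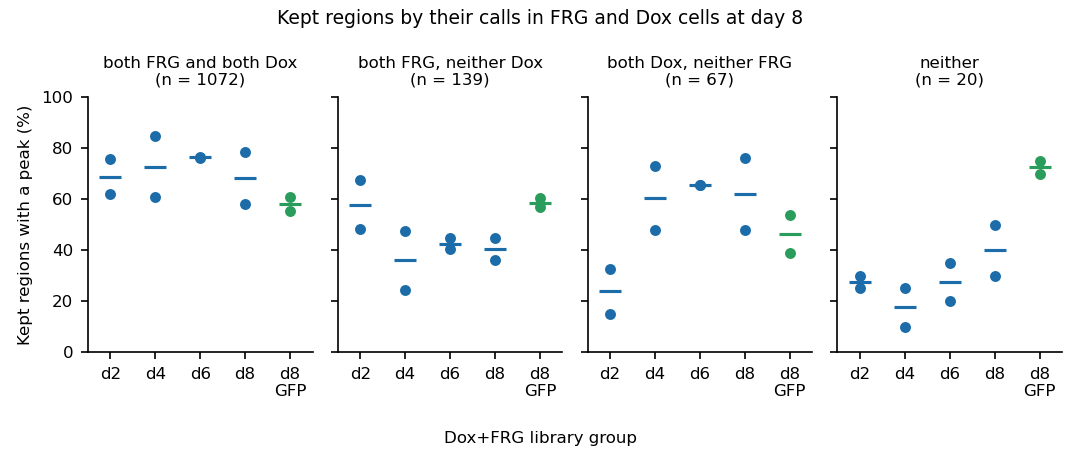
Percent of kept regions with a peak (y axis) in Dox+FRG libraries of days 2 to 8 (blue) and day 8 GFP (green), in 4 panels by the regions' calls in FRG and Dox cells at day 8; points are libraries and short lines group means. In the 139 regions of FRG but not Dox cells both GFP libraries (60.4% and 56.8%) lie above both unsorted day 8 libraries (44.6% and 36.0%).

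In the MEF10 cells, MN+FRG replicates 1 and 2 called 80.0% and 79.9% of kept regions and 58.5% and 58.4% of released regions. Both called 1182 kept regions (73.9%, beside 30.6% of all merged and 54.2% of fibroblast-only regions). MyoD+FRG replicate 1 called 29.5% of kept and 9.26% of released regions, and 84.9% of all-state regions, the lowest value of the 19 libraries. With 93086, 93730 and 37301 peaks in these lists, the groups differ in list length in the same direction.

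Named regions were taken in a fixed order: number of the 19 libraries with a peak, then number with an extended peak, then summed width. The first 10 of the 147 regions called in all 19 libraries were chr4:5421207-5422512, chr4:141735386-141736538, chr3:154478743-154480993, chr5:102254114-102255981, chr3:145626147-145628848, chr9:28210853-28212063, chr17:43295183-43295993, chr6:90514659-90516293, chr3:114607079-114607848 and chr4:124558656-124559939. The first of these had peaks of 153 and 167 bp, the common widths, at day 0 and of 1170 bp in both day 10 GFP libraries, and 18 of the 19 other libraries had an extended peak. Its nearest satellite cell region was 48650 bp away. The third went the other way, with peaks of 1198 and 1233 bp at day 0 and of the common widths, 184 and 172 bp, in day 10 GFP cells. The fifth was the widest of the 10, at 2702 bp, with day 0 peaks of 2680 and 1687 bp and day 10 GFP peaks of 584 and 1169 bp. Satellite cell libraries had no peak in any of them by the rule, and the nearest satellite cell regions of the 10 lay 2024 to 70709 bp away.

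In the class of FRG but not Dox cells the first regions were chr11:103153463-103154232, chr16:85128629-85129474 and chr3:137210587-137211298, called in 17, 16 and 16 of the 19 libraries. All 3 were called in every unsorted Dox+FRG and day 8 GFP library, and in no Dox day 8 library. In the class of Dox but not FRG cells they were chr12:69563256-69564355, chr9:30016673-30017742 and chr14:69010030-69010299, each called in 17 of 19 and absent only from the FRG libraries. Of the regions called in no unsorted Dox+FRG library the first were chr1:137022526-137023554, chr2:91789831-91791061 and chr3:54476839-54477655. The first of these had a peak in both day 8 GFP, all 4 Dox, both FRG and both MN+FRG libraries. The third had none in day 8 GFP cells.

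**Figure D5:**
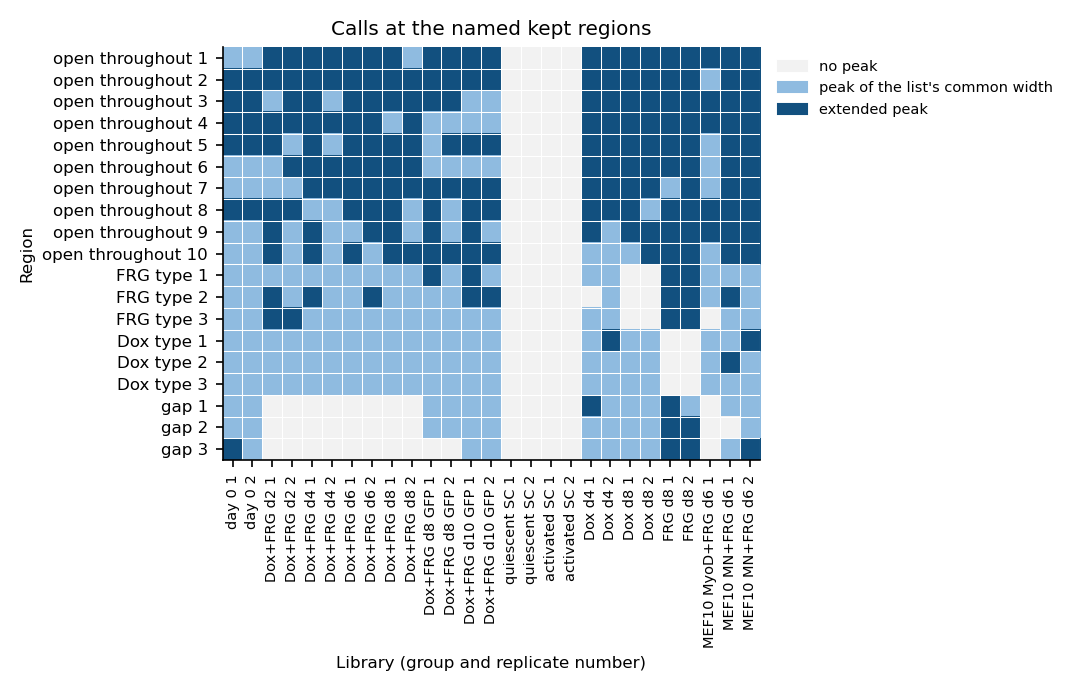
Calls at the named kept regions (rows, in the order of the text) in the 27 libraries (columns). First are 10 regions called in all 19 libraries outside the rule. Their mark, open throughout, refers to the calls in those 19 libraries alone. Then come 3 of FRG but not Dox cells and 3 of Dox but not FRG cells, by calls of day 8 alone. The last 3 were called in no unsorted Dox+FRG library and are marked gap. Grey is no peak, light blue a peak of the list's common width, dark blue an extended peak. The 4 satellite cell columns are empty by the rule, and the gap regions are empty in all 8 unsorted Dox+FRG libraries.

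The kept regions lay on every autosome and on X. Of the windows of 100 kb with a kept region, 1420 held 1, 85 held 2 and 3 held 3. The 3 densest were on chromosome 2 from 167800001 to 167900000, chromosome 8 from 118400001 to 118500000 and chromosome 13 from 104800001 to 104900000. The chromosome 8 window held chr8:118420959-118421935, chr8:118453516-118454071 and chr8:118466853-118467332, called in 19, 17 and 18 of the 19 libraries, beside 3 released regions. The 3 regions of the chromosome 13 window, chr13:104824690-104825231, chr13:104839037-104839788 and chr13:104864810-104865125, were called in 4, 5 and 15, beside 1 released region. Next in order were 2 windows with 2 kept regions on chromosome 1, from 35700001 to 35800000 and from 134900001 to 135000000, with no released region in either. By chromosome, the share of fibroblast-only regions that were kept ran from 6.62% on X (19 of 287) to 11.6% on chromosomes 4 (113 of 973) and 17 (67 of 577).

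The neighbours of kept regions were described in the same way. The nearest other fibroblast-only region was itself kept for 204 of 1599 kept regions (12.8%) and for 8.51% of released regions, beside 9.34% of all fibroblast-only regions. For regions called in 1 of 2 day 10 GFP libraries the share was 11.6%. Where the nearest such region lay within 10 kb it was kept for 9.58% of kept and 8.04% of released regions. Among regions called in 1 of 2 day 10 GFP libraries this was 11.9%, above the kept value. Regions new in day 10 GFP cells were called in both libraries, and in no day 0 and no satellite cell library. Such a region lay within 50 kb of 40.3% of kept and 27.9% of released regions. The share was 38.6% for regions called in 1 of 2 day 10 GFP libraries, near the kept value. For regions new in day 10 GFP cells that a satellite cell library also called, the kept and released shares were 44.9% and 39.0%. Regions called in 1 of 2 day 10 GFP libraries were at 49.0%, above both. No share over all merged regions is given for these distances. These are descriptions of positions that share the day 10 GFP lists with the rule, and no test was made.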

How the data were processed

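ATAC-seq was listed for 28 mouse libraries in 14 groups of 2. BWA, HOMER and mm9 are named in the submitters' processing notes. For versions, peak thresholds and read filters, none is given in the sources used here. Each deposited list holds chromosome, start and end of the peaks of 1 library, with no score or read count. MEF10 MyoD+FRG replicate 2, whose peaks had a median width of 722 bp and reached 202465 bp, was left out, and 27 lists were merged with Python 3.11.15, numpy 2.4.6 and numba 0.67.0. Groups came from the sample titles. Tests were exact permutation tests over libraries or groups, two-sided, at 0.05, with Benjamini-Hochberg adjustment over 6 tests. The 2 on kept minus released shares are given without p-values, since the choice of regions bears on their direction. The code of the rule was run on simulated lists of 20000 regions, set apart from each other and with members by chance removed beforehand. It found all 200 planted members. That is a check of the code and not of the merging of real lists. The planned gene lists and motifs were not run for want of an mm9 annotation and sequence. Regions were named by the order given in the text, and chromosome 18 was not named. Members, classes and tests were chosen with earlier results of these data known. The classes by FRG and Dox calls were compared between GFP and unsorted cells after the other results were known, with no test read.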

Additional observations from a re-analysis of the deposited data

How the results depend on the processing

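Lists without peak strength limit every value here, since a longer list calls more regions. The number of kept regions was 1555 to 1580 under a 50% overlap, all 28 lists, autosomes, satellite cell peaks widened by 1000 bp or peaks of 200 bp, and 104 with extended peaks alone. Leaving out a library gave 1624 to 3068. The excess of kept over released regions over the groups, 39.6 points, was 6.99 with extended peaks alone, 23.2 with equal list lengths, 44.2 in MEF14 groups and 38.8 to 41.7 when a library was left out.

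With extended peaks alone, Dox+FRG minus Dox was -9.66 points for kept regions (exact permutation p = 0.0286), -6.24 for kept minus released (11.8 with all peaks), and FRG minus Dox was 25.3. The counts were 2 regions in all 8 unsorted libraries, 1349 in none, 332 of FRG but not Dox, 37 of Dox but not FRG cells, and 30 in both day 8 GFP libraries. With equal list lengths of 37301 peaks, drawn at random, Dox+FRG minus Dox was 11.7 points (exact permutation p = 0.0286) and 17.2 for kept minus released, r with day was -0.51, GFP minus unsorted was 7.60 points for all kept regions and 3.54 for those of both treatments, and FRG minus Dox was 0. The counts were then 12 in all 8, 133 in none and 70 of FRG but not Dox cells. The equal draw also left a smaller share of all-state regions called in Dox than in Dox+FRG cells of days 4 and 8. The width above which a peak counts as extended was lower in FRG and Dox than in Dox+FRG lists, so extended peaks do not measure these groups alike. Both settings use fewer peaks by construction, and any further cause was not tested. Peaks of 200 bp gave 114 regions of Dox but not FRG cells. Without day 2 r was -0.0726.

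Leaving out a library in turn gave -17.2 to -9.12 points for Dox+FRG minus Dox, 7.36 to 15.7 for kept minus released, r from -0.19 to 0.37, -14.1 to 4.32 for GFP minus unsorted and 4.38 to 16.6 for FRG minus Dox. For GFP minus unsorted it gave 11 to 22.7 points in regions of FRG but not Dox cells and -20.5 to 0.0466 in those of both treatments. Counts were 393 to 462 in all 8, 71 to 91 in none, 141 to 345 of FRG but not Dox, 69 to 86 of Dox but not FRG cells, and 887 to 971 in day 8 GFP cells. A replicate block gave exact permutation p = 0.278 for Dox+FRG minus Dox (-12.9 points) and r = 0.05 (p = 0.938), so no call changed. Whether replicate numbers pair the libraries is not known. Correlations of deviations between groups were -0.011 to 0.11 over all regions, highest between Dox+FRG days 4 and 8, and low values cannot exclude pairing. Peaks of 200 bp, widened satellite cell peaks, members with direct overlap and MEF14 groups alone were chosen after seeing the data, as were all alternatives for the pattern counts and for the FRG and Dox classes.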

Other observations

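The library left out of the rule, MEF10 MyoD+FRG replicate 2, had a peak over 80.7% of kept, 71.4% of regions called in 1 of 2 day 10 GFP libraries, 40.1% of released and 99.2% of all-state regions. Its replicate 1 called 29.5%, 19.5%, 9.26% and 84.9% of these. Its peaks had a median width of 722 bp, where the most common width of the other lists was at most 205 bp, and overlapped 36.6% of all merged regions.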
